A study of Mus musculus with 4 samples.

Results

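Nuclear receptors are transcription factors, many of which are switched by steroid hormones, thyroid hormone, retinoic acid, vitamin D, fatty acids or sterols, while others have no settled ligand. The genes described here are 46 mouse genes of this family, read by 73 probes. They were chosen by name from the genes on the array, with earlier results of these data known. By the gene names of the array they are 46 of 29924 genes. RNA was compared on 4 dual-colour microarrays between organs of Corti of Sox2-Tbx2LOF embryos and of control embryos. This organ is the hearing epithelium of the cochlea and contains inner and outer hair cells and their supporting cells.

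Sox2-Tbx2LOF embryos had the genotype Sox2(creERT2);Tbx2(fl/fl). Controls were labelled Tbx2(fl/n.d.) and carried no Cre, so that one of their Tbx2 alleles is not given. All embryos were of the NMRI strain. By the study's crosses the mothers were homozygous for the R26 mTmG reporter, a Cre reporter, and passed it to the embryos. CreERT2 stands in the Sox2 locus and can act only in cells that express Sox2. The study gives the mutants as Sox2(CreERT2/+), whereas controls lacked this insertion. In any difference between the groups, loss of Tbx2, presence of CreERT2, its insertion in Sox2 and recombination of the reporter therefore cannot be told apart. The dams of both groups were given 4 mg of tamoxifen by mouth at E16.5, together with progesterone according to the methods, and the basal part of the organ of Corti was dissected at E18.5. Each pool held organs of Corti of several embryos of the same sex. Arrays 1 and 2 held female pools and arrays 3 and 4 held male pools, with 4 pools per genotype. Sox2-Tbx2LOF RNA was labelled with Cy3 on arrays 1 and 3 and with Cy5 on arrays 2 and 4.

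In this tissue thyroid hormone receptors are known for their part in the onset of hearing, retinoic acid receptors for early patterning of the cochlea, and glucocorticoid and estrogen receptors for effects on the sensitivity of the ear. Steroid receptors are bound by chaperones and pair with a copy of themselves on DNA. Thyroid hormone, retinoic acid, vitamin D, liver X and peroxisome proliferator-activated receptors pair instead with a retinoid X receptor. CreERT2 itself is a fusion of Cre with the ligand-binding domain of human estrogen receptor alpha, the product of ESR1, changed so that it answers to tamoxifen. A mouse probe for this domain may therefore read the transgene as well as Esr1.

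Of the 73 probes, 58 probes of 38 genes were well above background on at least 3 arrays in either genotype and were tested. Among these, 56 were so in every pool. The 8 genes without a tested probe were Nr0b1, Nr0b2, Nr1i2, Nr2e3, Nr4a3, Nr6a1, Hnf4a and Hnf4g. None of their probes was well above background on any array in either genotype, which for an array gives only an upper bound on the level. Ratios are given as log2 of Sox2-Tbx2LOF over control, and a probe was called changed when its adjusted p was under 0.05 and its fold change at least 1.5. By this rule 1 of the 58 probes was called, against 0.249% of all 28104 tested probes. That probe, of Esr1, was tested only because of its level in Sox2-Tbx2LOF pools, and without it 0 of 57 probes were called. An adjusted p under 0.05 with a higher level in Sox2-Tbx2LOF pools was found for 3 of the 58 probes (0.448% of all), which belonged to Esr1, Rxrg and Nr2e1. Without that Esr1 probe this held for 2 of 57. An adjusted p under 0.05 with a lower level was found for 0 of the 58 probes (0.537% of all) in limma, where 2 had an unadjusted p under 0.05 and a lower level.

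The label of the tissue was checked with markers. All 8 organ of Corti genes on the list (Sox2, Atoh1, Pou4f3, Myo7a, Myo6, Gfi1, Lfng and Jag1) were measured, and their summed log2 level was 15.5 to 15.6 in either genotype. Transcripts of other cells were also present, such as collagens of mesenchyme. Over both genotypes the summed log2 level was 18.21 to 18.54 for mesenchyme and 17.36 to 17.59 for glia markers. It was 16.75 to 17.15 for blood and 16.73 to 16.83 for neuron markers. These 4 lists were thus brighter than the organ of Corti list. Because the lists hold different genes, their sums do not give shares of cells, and receptor levels are those of the whole dissected tissue. The single Tbx2 probe starts at base 3502 of its transcript and averaged −0.15 ± 0.14 on the log2 scale (SD, n = 4, limma adjusted p = 0.313). Whether recombination removes the stretch read by this probe is not given in the sources used here, so it does not check the deletion. The ratio of Sox2, the gene that carries CreERT2, averaged 0.23 ± 0.09 (SD, n = 4) with a limma adjusted p of 0.0872. Its probe starts at base 1846. Whether it also reads RNA of the allele with the insertion is not given in the sources used here and was not tested.

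Esr1 encodes estrogen receptor alpha and was read by 4 probes, which are described apart from the other members because of CreERT2. The probe that changed, A_55_P2030883, starts at base 1252 of the transcript and lies at positions 5489352 to 5489411 of chromosome 10 in the mm9 build. Its sequence is shown because it decides which transcripts the probe can read, and it is given 5′ to 3′ in lower case as deposited.
Esr1 A_55_P2030883: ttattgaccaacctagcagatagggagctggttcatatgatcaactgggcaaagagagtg
These 60 bases contain 1 reading frame without a stop codon. They are mouse coding sequence of the ligand-binding domain, the part of the receptor that CreERT2 carries in its human form. No sequence of human ESR1 or of CreERT2 was available, so how well these bases match the transgene was not tested.

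The log2 level of this probe in Sox2-Tbx2LOF pools was 8.67, 8.49, 8.68 and 8.50 on arrays 1 to 4. In control pools it was 6.57, 6.30, 6.45 and 6.41. All Sox2-Tbx2LOF pools thus lay above all control pools, in both sexes and both dyes. The probe was well above background on 4 arrays in the Sox2-Tbx2LOF channel and on 0 arrays in the control channel. Because no control value was measured above background, the difference is given as a bound. In Sox2-Tbx2LOF pools the level of Esr1 probe A_55_P2030883 was higher by at least 4.37-fold, where each control channel counted with its own level or, if that was higher, with the dimmest signal that the scanner software called well above background there. The log2 ratios as measured were 2.10, 2.19, 2.23 and 2.09, with a limma adjusted p of 2.91e-07. The probe entered the test through the Sox2-Tbx2LOF channel alone, so that a difference was given by the filter and these ratios are no measure of its size beyond the bound. The fitted ratio depends on how background was handled, since the control signal is close to it. It was 2.15 here and 4.44 with the log ratio of the scanner software.

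The other Esr1 probes were not called. Probe A_52_P237077, which starts at base 4040, was measured above background in every pool, at a log2 level of 6.70 to 6.82 in Sox2-Tbx2LOF pools and 6.75 to 6.82 in controls. Its log2 ratios on arrays 1 to 4 were −0.00, −0.11, −0.00 and −0.06. The mean was −0.04 ± 0.05 (SD, n = 4) with a 95% interval of −0.15 to 0.06, and the groups overlapped. Probes A_51_P474658 and A_66_P138072 start at bases 2050 and 2657 of their transcripts and were not well above background in either genotype on any array. Their levels lay between 5.99 and 6.15 in all pools. So among 4 Esr1 probes, only that within the ligand-binding domain was called. Controls lacked CreERT2, so that RNA of native Esr1 and RNA of the transgene cannot be told apart at this probe. The plot of Esr1 levels shows the 4 probes side by side.

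**Figure D1:**
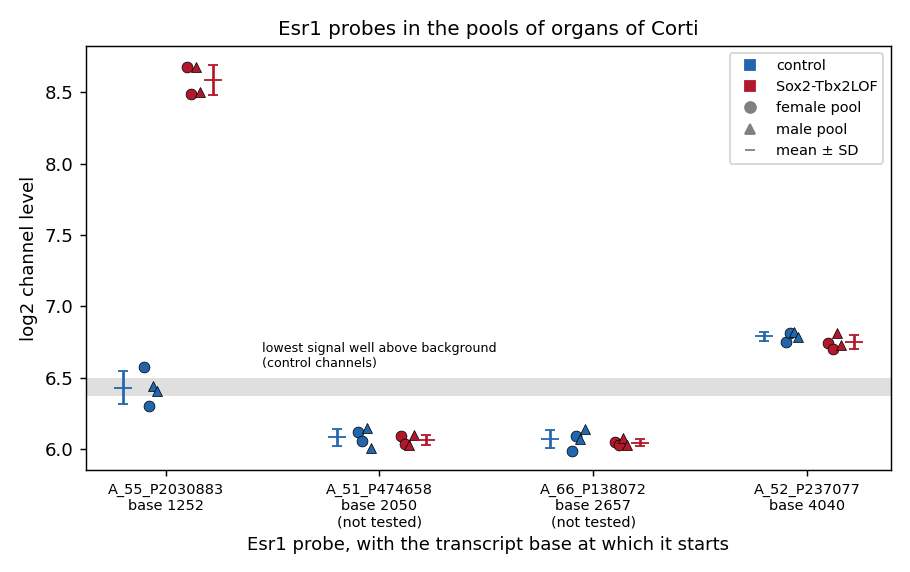
Log2 channel level (vertical axis) of the 4 Esr1 probes, ordered by the transcript base at which each starts, in 4 control and 4 Sox2-Tbx2LOF pools (circles female, triangles male), with mean ± SD beside the points. The probe at base 1252 lies at 8.49 to 8.68 in Sox2-Tbx2LOF pools and around the lowest signal well above background (grey band) in controls, while the other probes overlap between the genotypes.

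Retinoid X receptors are the shared partners of many nuclear receptors, and Rxrg encodes the gamma form. Rxrg probe A_51_P513311 (mm9 chromosome 1, 169569624 to 169569683) had log2 levels of 14.04, 13.93, 14.01 and 13.74 in the Sox2-Tbx2LOF pools of arrays 1 to 4. The control pools had 13.37, 13.75, 13.38 and 13.42. The highest control pool, on array 2, lay just above the lowest Sox2-Tbx2LOF pool, on array 4, so that the groups overlapped by that pair. The mean log2 ratio of Rxrg was 0.45 ± 0.24 (SD, n = 4), a 1.36-fold higher level, with a 95% interval of 0.34 to 0.56. Rxrg was higher on 4 of 4 arrays and passed the test (limma, SE 0.049, adjusted p = 0.00348), but stayed under the 1.5-fold limit for a call.

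The size of the Rxrg difference moved with the dye. At probe A_51_P513311 the log2 ratio was 0.67 and 0.63 on the arrays with Sox2-Tbx2LOF RNA in Cy3, and 0.18 and 0.31 on those with it in Cy5. The other Rxrg probe, A_55_P2044359, starts 128 bases upstream and had the opposite order, with 0.08 and 0.12 in Cy3 and 0.26 and 0.33 in Cy5. Its mean was 0.20 ± 0.12 (SD, n = 4), and it missed the threshold (limma, adjusted p = 0.134). At this second probe all Sox2-Tbx2LOF levels, 12.68 to 12.80, lay above all control levels, 12.46 to 12.64. Both Rxrg probes were thus higher on all arrays, with a mean of 0.45 at one and 0.20 at the other. Without a dye term in the fit the adjusted p of A_51_P513311 was 0.146, and with the deposited series matrix it was 0.257.

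Rxra and Rxrb encode the alpha and beta forms. The brightest Rxra probe had log2 ratios of −0.06, 0.13, 0.02 and 0.08 and a mean of 0.04 (95% interval −0.06 to 0.15). Rxrb had ratios of 0.18, −0.21, 0.19 and −0.13 with a mean of 0.01 (95% interval −0.10 to 0.11). Its sign followed the dye on every array. Neither passed the test, and whether Rxrg differed from Rxra and Rxrb was not tested.

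Nr2e1 encodes the tailless homologue, a repressor known from neural and retinal progenitors. In mutants given tamoxifen earlier, the study reports raised or ectopic Nr2e1 RNA in the greater epithelial ridge, adjacent to the organ of Corti. At E18.5 the study still found Nr2e1 RNA in that ridge, for which no marker list was used here. Its probe A_55_P2004442 (mm9 chromosome 10, 42281826 to 42281885) had log2 levels of 13.28, 13.26, 13.34 and 13.25 in Sox2-Tbx2LOF pools. In control pools the levels were 13.03, 13.02, 13.07 and 12.97. The groups did not overlap. The log2 ratio was 0.25, 0.24, 0.27 and 0.28, with a mean of 0.26 ± 0.02 (SD, n = 4), a 1.20-fold higher level that was alike in both sexes and both dyes. In limma the adjusted p was 0.0454, close to the threshold, and it passed that threshold in 4 of 14 alternative fits, with adjusted p between 0.0444 and 0.315. It was lost when any of the 4 arrays was left out, at 0.0608 to 0.162, while the ratio kept between 0.25 and 0.27.

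Thyroid hormone receptors are encoded by Thra and Thrb. Thrb is the form whose loss is known to cause deafness in mice and people. Its brightest probe, A_52_P532559 (mm9 chromosome 14, 18868800 to 18868859), had log2 levels of 13.43, 13.52, 13.71 and 13.50 in Sox2-Tbx2LOF pools against 13.22, 13.29, 13.39 and 13.34 in control pools. The groups did not overlap, by a narrow margin. The log2 ratios of Thrb were 0.21, 0.23, 0.32 and 0.16 and averaged 0.23 ± 0.07 (SD, n = 4), with a 95% interval of 0.12 to 0.34. The unadjusted limma p was 0.00124 and the adjusted p 0.0874, so that Thrb did not pass the test over all probes. The second Thrb probe had ratios of 0.07, 0.28, 0.14 and −0.02 with a mean of 0.12 (limma, adjusted p = 0.853). Thra, which encodes the alpha form, had ratios of −0.10, −0.02, 0.36 and 0.06, and its mean of 0.08 had a 95% interval of −0.09 to 0.24.

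**Figure D2:**
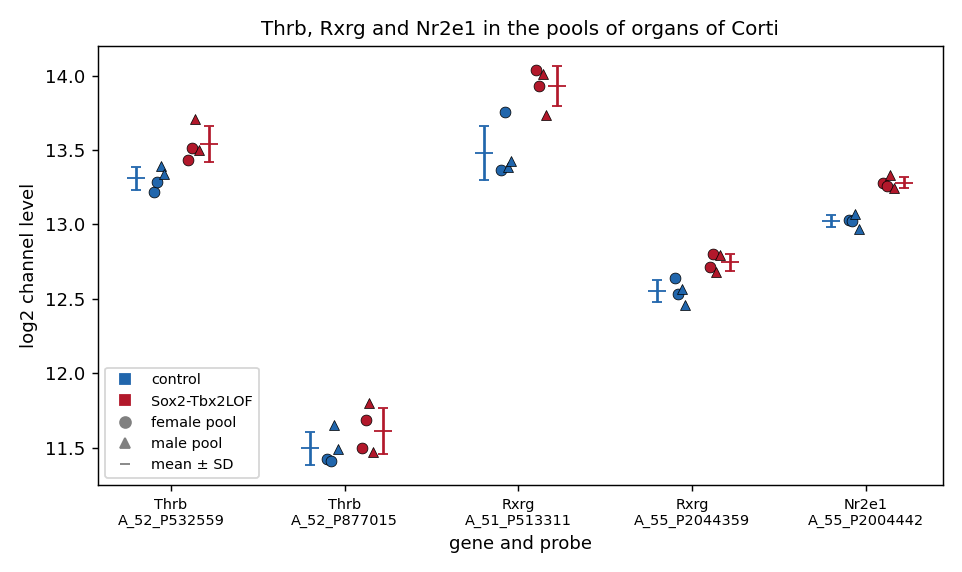
Log2 channel level (vertical axis) of the tested Thrb, Rxrg and Nr2e1 probes in 4 control and 4 Sox2-Tbx2LOF pools (circles female, triangles male), with mean ± SD beside the points. The pools of the genotypes do not overlap for Nr2e1, for Thrb A_52_P532559 and for Rxrg A_55_P2044359, and overlap by a single pair of pools for Rxrg A_51_P513311.

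Over the tested members, all Sox2-Tbx2LOF levels lay above all control levels for 4 of 58 probes (1.2% of all probes), namely those of Esr1, Thrb, Rxrg and Nr2e1 just given. They lay below for 0 of 58 probes (1.32% of all). The Esr1 probe entered the test through the Sox2-Tbx2LOF channel alone, so that its place among the 4 was given by the filter. An unadjusted p under 0.05 was found for 9 of 58 probes, or 15.5%, against 7.12% of all probes. Without the Esr1 probe of the domain it was 8 of 57. The 9 were the probe of Esr1 with the domain sequence, both probes of Rxrg, 1 of Thrb, that of Nr2e1, both of Nr4a2, that of Nr1h4 and 1 of Rorb. The sign was the same on 4 arrays for 9 of 58 probes, and for 8 of 57 without that Esr1 probe, against 9.02% of all. The median log2 ratio of the 58 probes was 0.01, beside 0.00 over all tested probes. Because members were chosen with earlier results of these data known, the shares of member probes are no test of the family.

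Some markers of cell types differed between the same pools. Of 6 inner hair cell markers tested, 4 had an adjusted p under 0.05 and were lower in Sox2-Tbx2LOF pools, namely Fgf8, Cabp2, Slc17a8 and Otof, and their median log2 ratio over the list was −0.53. The summed log2 level of these 6 markers was 14.05 to 14.35 in Sox2-Tbx2LOF pools and 14.36 to 14.60 in controls. Among 6 pillar and Deiters cell markers only Hey2 passed the adjusted threshold, with a higher level (log2 ratio 0.29, limma adjusted p = 0.0409). The median of that list was 0.07, with 4 means above and 2 below 0, and the summed level overlapped at 15.37 to 15.48 and 15.34 to 15.46. Of 8 neuron markers only Isl1 passed, with a higher level (0.28, limma adjusted p = 0.0321). The median of the neuron list was 0.02, with 6 means above and 2 below 0, and summed levels were 16.78 to 16.83 and 16.73 to 16.74. Mesenchyme markers, with 0 of 8 past the adjusted threshold and 4 of 8 at an unadjusted p under 0.05, had a median of 0.12 and summed levels of 18.45 to 18.54 in Sox2-Tbx2LOF pools and 18.21 to 18.44 in controls. Vessel markers (0 of 6 past the threshold, median 0.08, all 6 means above 0) had summed levels of 14.01 to 14.13 in Sox2-Tbx2LOF pools and 13.90 to 13.97 in controls. The summed levels of inner hair cell, neuron, mesenchyme and vessel markers thus did not overlap between the genotypes. The margin was narrow for inner hair cell markers (14.355 in Sox2-Tbx2LOF against 14.359 in controls) and mesenchyme markers (18.445 against 18.440). How often sums of other gene lists separate in this way was not tested. For outer hair cells 0 of 5 tested markers passed (median 0.09, summed levels 13.31 to 13.52 and 13.28 to 13.37). Summed levels of glia, blood, melanocyte and macrophage markers overlapped between the genotypes, and 0 of their 7, 5, 5 and 6 tested genes passed. The outer hair cell marker Slc26a5 and the melanocyte marker Tyrp1 were not well above background. The part of these cell types in the differences of Rxrg, Nr2e1 and Thrb was not tested, and in whole tissue a change in the number of cells and a change of RNA per cell cannot be told apart.

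Apart from Esr1, no gene of the steroid receptors passed the test. Esr2, which encodes estrogen receptor beta, had log2 ratios of −0.06, 0.13, −0.09 and 0.23, and its mean was 0.05 (95% interval −0.06 to 0.16). Nr3c1, the glucocorticoid receptor gene, had 0.41, −0.35, 0.19 and −0.27 at its brightest probe, which is high wherever Sox2-Tbx2LOF RNA was in Cy3 and low wherever it was in Cy5. The mean was −0.00 (95% interval −0.13 to 0.12), and the second Nr3c1 probe averaged 0.01 with ratios of −0.07 to 0.10. Nr3c2, the mineralocorticoid receptor gene, had 0.05, 0.08, −0.04 and 0.07 with a mean of 0.04 (95% interval −0.07 to 0.15). Pgr, the progesterone receptor gene, averaged −0.07 ± 0.13 (SD, n = 4) at the single probe of 3 that could be tested. The estrogen-related receptors, which resemble estrogen receptors but do not bind estrogen, had means of −0.01 ± 0.31 for Esrra, −0.12 ± 0.28 for Esrrb and 0.07 ± 0.16 for Esrrg (SD, n = 4).

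The retinoic acid receptor genes likewise did not pass the test. Rara had log2 ratios of 0.08, −0.05, 0.23 and −0.00 with a mean of 0.06 (95% interval −0.05 to 0.18), and its second probe averaged −0.07. Rarb had 0.18, −0.14, 0.11 and −0.15 with a mean of −0.00 (95% interval −0.11 to 0.11). Rarg had −0.26, 0.03, 0.13 and 0.04 with a mean of −0.02 (95% interval −0.16 to 0.13). As intervals they leave room for small differences in either direction, none as large as 1.5-fold.

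Among receptors of sterols, fatty acids and vitamins, Nr1h4, which encodes the bile acid receptor, had the lowest mean. Its log2 levels were 7.05, 7.05, 7.12 and 6.88 in Sox2-Tbx2LOF pools and 6.99, 7.32, 7.24 and 7.25 in controls. The ratios of 0.06, −0.27, −0.13 and −0.37 averaged −0.18 ± 0.19 (SD, n = 4) and did not pass (limma, unadjusted p 0.00842, adjusted p = 0.275). The liver X receptor genes Nr1h2 and Nr1h3 averaged 0.01 ± 0.14 and 0.03 ± 0.06, and Nr1i3, the constitutive androstane receptor gene, averaged 0.01 ± 0.15. Ppara, Ppard and Pparg, which sense fatty acids, averaged −0.15 ± 0.22, 0.01 ± 0.18 and −0.03 ± 0.09. Vdr, the vitamin D receptor gene, averaged 0.04 ± 0.15 (SD, n = 4 in each case).

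Receptors of the clock and of fast responses were also near 0. Rora and Rorb encode activators and Nr1d1 and Nr1d2 the Rev-erb repressors that compete with them at shared sites. Rorb had log2 ratios of −0.17, −0.07, −0.08 and −0.11 at its brightest probe, and the mean was −0.11 ± 0.04 (SD, n = 4, limma unadjusted p 0.0485, adjusted p = 0.691). Rora averaged −0.10 ± 0.05, Nr1d1 0.05 ± 0.10 and Nr1d2 0.04 ± 0.12. Nr4a2, an immediate early gene and receptor without a ligand pocket, had ratios of 0.20, −0.04, 0.43 and 0.04 at one probe and of −0.18, 0.36, −0.14 and 0.40 at another. The means, 0.16 and 0.11, were alike although the dye pattern of the probes was opposite, and neither passed (limma, adjusted p = 0.453 and 0.688). Nr4a1 averaged −0.04 ± 0.05.

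Of the remaining orphan receptors, the COUP-TF genes Nr2f1, Nr2f2 and Nr2f6 averaged 0.03 ± 0.10, 0.09 ± 0.08 and 0.05 ± 0.12 at their brightest probes. The second Nr2f1 probe went the other way, with log2 ratios of −0.02, −0.26, −0.07 and −0.09 and a mean of −0.11 ± 0.10 (SD, n = 4, limma adjusted p = 0.761), while at the brightest probe array 3 alone was clearly above 0. Nr2f1 and Nr2f2 are known as regulators of patterning, in the inner ear as elsewhere. The testicular receptors Nr2c1 and Nr2c2 averaged −0.03 ± 0.13 and 0.04 ± 0.18. Nr5a1 and Nr5a2, which drive steroid and bile acid genes, averaged −0.01 ± 0.27 and 0.06 ± 0.21 (SD, n = 4 in each case). Without the Esr1 probe of the domain, all 57 tested probes had a 95% interval that lay inside a 1.5-fold change in either direction, as 99.4% of all probes did. For dim probes this bound is less firm, since the offset used against background pulls their ratios towards 0. With the log ratio of the scanner software, the dim probes of Nr1h4 and Rorb (A_55_P2290388) averaged −0.31 and −0.18.

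**Figure D3:**
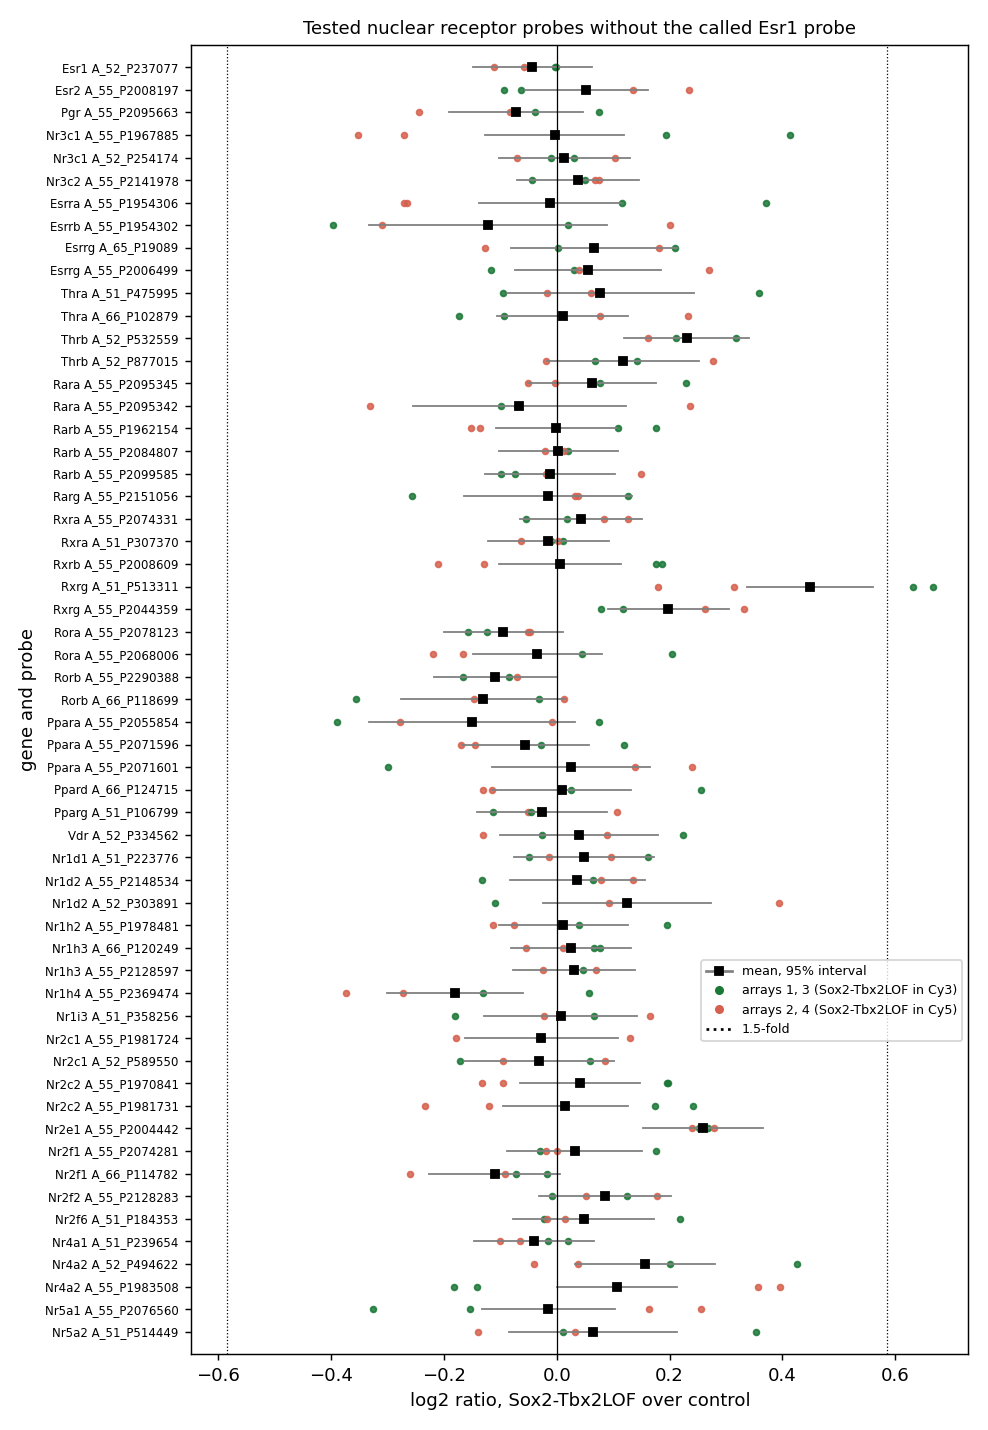
Log2 ratio of Sox2-Tbx2LOF over control (horizontal axis) for the 57 tested nuclear receptor probes other than Esr1 A_55_P2030883, with points for single arrays coloured by dye, squares for means and bars for 95% intervals. The interval of each of these probes lies within the dotted lines of a 1.5-fold change, and the means furthest from 0 are those of Rxrg and Nr2e1.

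Several probes of a gene gave a check on single values. Of 18 genes with more than 1 tested probe, 11 had means of the same sign and 7 had means of both signs. Outside Esr1, the widest gap between probes of a gene was that of Rxrg, 0.25 on the log2 scale, followed by Ppara with 0.18 and Nr2f1 with 0.14.

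The dye term of the fit was larger than the genotype difference for 33 of 58 probes, against 67.8% of all probes. The dye term was −0.31 for the brightest Nr3c1 probe, −0.26 for Esrra and 0.27 for Nr4a2 A_55_P1983508. For Nr2e1 and Esr1 A_55_P2030883 it was −0.00 and −0.01. Because the dyes were balanced within each sex, the dye cancels in the mean of the 4 ratios but widens their SD.

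**Figure D4:**
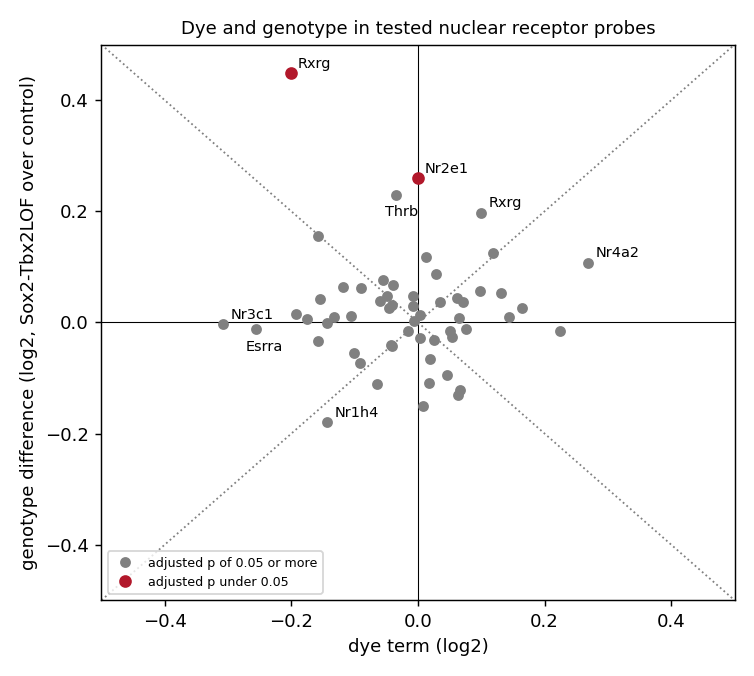
Genotype difference (vertical axis, log2 Sox2-Tbx2LOF over control) against the dye term (horizontal axis, log2) for the 57 tested nuclear receptor probes other than Esr1 A_55_P2030883; on the dotted diagonals both are of equal size. Red points, for Rxrg A_51_P513311 and Nr2e1, have an adjusted p under 0.05 and lie above the diagonals, whereas Nr3c1, Esrra and Nr4a2 lie far out along the dye axis.

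The arrays of female and of male pools were compared with each other. A different genotype effect in female and male pools was found for 0 of 58 member probes at an adjusted p under 0.05 in limma, as for 0% of all probes. At an unadjusted p under 0.05 it was 1 of 58 (Nr1d2 A_52_P303891, 0.26 in female and −0.01 in male pools), against 2.01% of all. The level itself differed by sex for 0 of 58 member probes at an adjusted p under 0.05 in limma, against 0.0676% of all. At an unadjusted p under 0.05 it was 4 of 58 against 7.92% of all. The smallest unadjusted p in the level was that of Rora A_55_P2068006, with a mean log2 level of 8.17 in female and 7.91 in male pools (limma, adjusted p = 0.547).

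Genes around the receptors were read from 12 lists with 141 genes, of which 132 were tested at their brightest probe. In limma 0 of the 132 passed the adjusted threshold in either direction, and 17, or 12.9%, had an unadjusted p under 0.05, of which 13 were lower and 4 higher. Over all tested probes the share was 7.12%, with 995 lower and 1006 higher. Medians of the lists lay between −0.05 and 0.03 on the log2 scale. The lists were put together with earlier results of these data known.

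Of the genes for supply, binding and breakdown of retinoic acid, 5 of 14 tested had an unadjusted p under 0.05 and all 5 were lower in Sox2-Tbx2LOF pools (7.12% of all probes in either direction), although none passed the adjusted threshold. Cyp26b1, which breaks down retinoic acid, had log2 ratios of −0.65, 0.14, −0.58 and −0.16 with a mean of −0.31 ± 0.37 (SD, n = 4, limma adjusted p = 0.0607). It was lower on 3 of 4 arrays, most so where Sox2-Tbx2LOF RNA was in Cy3. Lrat, which stores retinol as an ester, had −0.18, −0.08, −0.25 and −0.21 with a mean of −0.18 ± 0.07 (SD, n = 4, limma adjusted p = 0.223). The other genes of the 5 were Crabp1 (−0.14), Stra6 (−0.16) and Cyp26a1 (−0.18). Among 10 retinoic acid target genes Cyp26b1 and Cyp26a1, which this list shares, had the smallest p, and the median was −0.02.

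For thyroid hormone, Slc16a10, a transporter, averaged 0.16 and Slc7a5 0.14, with limma adjusted p of 0.431 and 0.787, and 1 of 8 tested genes of transport and conversion had an unadjusted p under 0.05. Of 8 target genes of thyroid hormone 0 did so, with Thrsp at 0.10 and Bcl3 at −0.08. In steroid conversion, where 0 of 11 did so, Hsd11b2 and Hsd11b1, which inactivate and regenerate glucocorticoids, averaged −0.10 each. Among 14 glucocorticoid target genes the smallest p values were those of Zbtb16, at 0.18 (limma adjusted p = 0.210), and Dusp1, at −0.14. Both moved with the dye, with ratios of 0.33, 0.08, 0.32 and −0.02 for Zbtb16 and of −0.42, 0.03, −0.22 and 0.04 for Dusp1.

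Of 11 estrogen target genes, 4 had an unadjusted p under 0.05 (7.12% of all probes), and the median of the list was 0.02. Myb averaged −0.18 (−0.14, −0.20, −0.20 and −0.21), Ccnd1 −0.16 and Xbp1 −0.17, whereas Greb1 averaged 0.12. The smallest limma adjusted p of these was 0.170, for Myb. The sign of Greb1 followed the dye on every array (0.28, −0.11, 0.32 and −0.00). Ccnd1 was lower on every array, but its size moved with the dye (−0.26, −0.06, −0.27 and −0.05). Chaperones of steroid receptors had a median of −0.02 with 0 of 10 genes at an unadjusted p under 0.05, and Fkbp4 (−0.08) and Dnaja1 (−0.05) followed the dye on every array. Coregulators, which link receptors to chromatin, had a median of 0.01, a range of −0.07 to 0.07 and 0 of 20 genes at an unadjusted p under 0.05, with Nrip1 at 0.06 and Ncoa2 at 0.06.

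Among 14 tested clock genes Ciart averaged −0.21 (limma adjusted p = 0.256) and Bhlhe40 −0.08. Of 12 liver X and lipid receptor target genes, 1 had an unadjusted p under 0.05, the median was 0.03 and Srebf1 averaged −0.10. Of 12 tested immediate early genes, 3 had an unadjusted p under 0.05 (7.12% of all probes). Egr1 averaged −0.25 ± 0.15 (SD, n = 4, limma adjusted p = 0.120) and was lower on 4 of 4 arrays. Fos averaged −0.69 ± 0.95 with ratios of −2.01, 0.14, −0.17 and −0.72, so that array 1 held most of the difference.

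**Figure D5:**
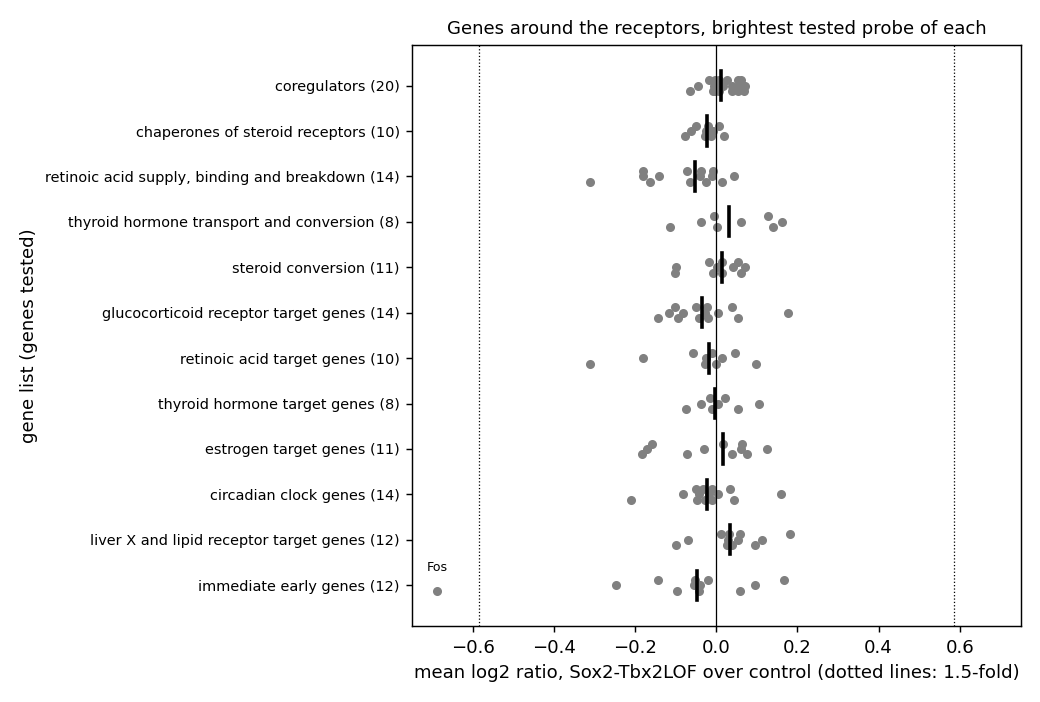
Mean log2 ratio of Sox2-Tbx2LOF over control (horizontal axis) for the tested genes of 12 lists, a point per gene at its brightest tested probe, with the median of each list as a bar. Medians lie between −0.05 and 0.03, and only Fos lies outside the dotted lines of a 1.5-fold change.

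Promoter sequences were searched because TBX2 and nuclear receptors both bind DNA directly. RefSeq windows of assembly GRCm38.p6, from 250 bases before to 50 after a start site, were found for 42 of the 46 genes (63 windows). On either strand the core of T-box sites, GGTGTGA, occurred in 3.98% of all 32851 windows and in 7 of the 63 member windows, those of Nr2c2, Nr4a3, Pparg, Rara and Rxra. It occurred in none of the windows of Esr1, Rxrg, Nr2e1 and Thrb, which says only that these letters are not in these windows. The core hexamer of nuclear receptor sites, AGGTCA, occurred in 16.3% of all windows and in 12 of the 63 member windows. These belong to 11 genes, among them Rxrg, Thrb and Nr1h4. In the Nr1h4 window the hexamer lies 214 bases before the start site, and the mean log2 ratio of Nr1h4 was −0.18. The hexamer was thus found with means of either sign. The stretches around it are shown for Rxrg and Thrb only, chosen after their values were seen, with the hexamer in capitals. The Rxrg stretch lies at chr1:167618137-167618222 on the plus strand, with the hexamer 88 bases before the start site. The Thrb stretch lies at chr14:17660736-17660821 on the plus strand, with the hexamer 184 bases before the start site.
Rxrg: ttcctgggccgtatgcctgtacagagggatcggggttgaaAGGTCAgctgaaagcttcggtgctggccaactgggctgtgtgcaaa
Thrb: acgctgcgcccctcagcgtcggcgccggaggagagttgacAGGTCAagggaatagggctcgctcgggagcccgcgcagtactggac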

How the data were processed

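RNA of E18.5 organs of Corti was hybridised to 4 dual-colour arrays, with 4 pools per genotype. The deposited files hold spot intensity values per channel and a log10 ratio of red over green, both made by the authors with Agilent Feature Extraction 10.7.3.1. The deposited series matrix holds a signed fold change whose normalization is not given in the sources used here. Its median was 1 on every array, and its direction was taken from its correlation with the scanner log ratios (0.918 to 0.939).

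Intensity values were corrected with normexp (offset 50) and loess in limma 3.58.1 under R 4.3.3, leaving out control spots and those flagged as outliers (3.23% to 3.56%). No spot was saturated, and the arrays lay on a common slide with a common scan. The 4 spots of a probe were averaged. A probe was tested when more than 0.5 of its spots were well above background in a genotype on at least 3 arrays, which left 28104 of 39429 probes. Between 69.7% and 74.6% of probes were well above background per array and genotype. Median spot signal was 315 to 412. The number of arrays limits the precision.

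Log2 ratios were tested with lmFit and eBayes with a dye term and Benjamini-Hochberg adjustment over all tested probes, two-sided. The study's methods name a 2-class unpaired test with SAM. An unpaired limma fit of the 8 channel levels was used as an alternative in its place. The fits with sex used a sex term, or lmscFit on channel levels after Aquantile normalization. Fits were tested on simulated data. Ratios of dim probes are pulled towards 0 by the offset, and loess assumes that most genes do not change.

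Members and lists were chosen with earlier results of these data known. Named were all members, at their brightest tested probe (highest mean brightness), every Esr1 probe, and of each list the 2 genes with the smallest p, of which 1 is not reported here. Other list genes with an unadjusted p under 0.05, and markers, were named after their values were seen. Positions are those of the array files (mm9). Symbols of list genes were updated through RefSeq accessions, which matched for 28328 probes.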

Additional observations from a re-analysis of the deposited data

Results flagged for a closer look

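Of 41 probes examined for a single array far from the other 3, 2 stood out, where chance alone gives about 1 in 20. Nr2f1 A_55_P2074281 had a log2 ratio of 0.177 on array 3, against −0.03 to 0.00 on the others. Nr2f6 A_51_P184353 had a log2 ratio of 0.219 on array 3, against −0.02 to 0.01 on the others. Both genes encode COUP-TF receptors, and neither passed the test.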

How the results depend on the processing

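Esr1 A_55_P2030883, whose control channel was not above background, had log2 ratios between 2.12 (without array 3) and 4.44 (scanner log ratio) in the 13 alternative fits that included it, which all rest on the same detection in Sox2-Tbx2LOF pools alone. The log2 ratio was 2.76 with an offset of 16, 2.47 without background correction and 2.95 with the series matrix. Restricting the test to probes well above background in both genotypes on all arrays leaves this probe out by construction and gave 0 called member probes in place of 1, as did leaving out the Esr1 probes. The number of member probes with an adjusted p under 0.05 was 3, and it was 1 with the series matrix and 1 without a dye term. With any single array left out it was 2, with 1 call throughout. The cause was not tested. Rxrg A_51_P513311 passed in 12 of 14 alternatives and Nr2e1 in 4 of 14. Over the other 38 probes followed, 0 of 532 values passed an adjusted threshold. No ratio that had passed the threshold changed sign, while the sign of 20 of the 41 ratios followed turned in at least 1 alternative. Calls over all probes were 70, and 122 with the scanner log ratio, 1 with the series matrix and 106 without array 1. The mean over all tested probes of a gene gave 1 call, as did the brightest probe. Counts for sex were 0 under every alternative, where fits without an array kept the intraspot correlation of all 4 arrays. The groups of pools are paired by array, so no further block was fitted. SAM was not run.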
